A study of Mus musculus with 22 samples.

Results

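The Wnt pathway genes described here are 49 genes chosen by name and by role, of 33984 mouse genes with a count in the choroid plexus (ChP) data. They are 13 Wnt ligands, 12 receptors of the Frizzled and LRP families, 9 secreted inhibitors, 3 R-spondins, 3 feedback regulators and 9 nuclear effectors. The rule names them without a threshold on any measured value, although earlier results of these data were known when it was set. The study asked what the homeoprotein OTX2 does in the adult ChP, the epithelium that produces cerebrospinal fluid. RNA was sequenced from 14 pools of dissected ChP, with 7 groups of 2 pools. The conditional model used 3-month-old Otx2lox/lox mice of strain S129. They received an intracerebroventricular injection of the Cre recombinase protein Cre-Tat or of vehicle, and lateral ventricle (LV) and 4th ventricle (4V) ChP were taken apart 15 days later, giving the groups LV Cre-Tat, LV vehicle, 4V Cre-Tat and 4V vehicle. Both Cre-Tat and vehicle mice thus carried the floxed alleles and an injection into the lateral ventricles. Each pool held lysates of 5 Cre-Tat or 4 vehicle mice. The constitutive model was of strain B6D2 and 4V ChP only, with wildtype, Otx2 (+/-) and Otx2 (+/AA) pools. The Otx2 (+/-) mice carry GFP in place of 1 Otx2 allele in every cell from conception, so that model is neither adult-onset nor restricted to the ChP. The pools of this model were made from 4 Otx2+/- or 5 wildtype mice of 3 months, and what the AA allele encodes and the age and number of Otx2+/AA mice are not given in the sources used here. The mice were an equal mix of sexes. With 2 pools a group, p-values measure the spread between pools.

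The pools of the conditional model held between 22750019 and 50088408 transcript counts and those of the constitutive model between 36934922 and 43790479. Otx2, the targeted gene, went against the labels when counted over its whole transcript. Its level, in CPM (counts scaled to a library size of 1000000), lay between 386 and 469.6 in the LV and 4V vehicle pools and between 1025 and 1236 in the pools labelled Cre-Tat, and it was 303 and 361 in wildtype, 886 and 1027 in Otx2+/- and 339 and 357 in Otx2+/AA pools. The study counted reads of the deleted exon apart, which was not analysed here because the deposited counts are per transcript, so all directions below are those of pools labelled Cre-Tat or Otx2+/-. In the conditional model, 14 of the 16 files carry a library number that belongs to another pool than the sample they are attached to. Joined by library number, both sequencing runs of a pool differed by 1.00 to 1.04 chi-square units per degree of freedom, and joined as attached by 22.8 to 40.8, so the library number was used. As attached, the A and B pools of a group hold runs of the same libraries, and the log2 fold change of 11 of the Cre-Tat results named below turned its sign. The ChP epithelial markers fixed for the study were abundant in every pool, with a summed level of 27786 to 53970 CPM over 10 genes.

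Wnt proteins are secreted lipid-modified ligands that bind Frizzled receptors together with the co-receptors LRP5 and LRP6. In the canonical branch this stabilises beta-catenin, which enters the nucleus and works with TCF and LEF factors, while TLE proteins repress the same targets in its absence. Secreted inhibitors such as the SFRP proteins and SOSTDC1 hold back ligands or co-receptors, R-spondins keep Frizzled at the cell surface, and Axin2, Nkd1 and Znrf3 are switched on by the pathway and restrain it. In the ChP, the pathway is known for its part in the development of the tissue, and ChP cells release some of its ligands and inhibitors into the cerebrospinal fluid.

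Promoter sequence is shown for 3 of the genes that differ between groups below, taken from RefSeq for build GRCm38.p6. Wnt2b and Sfrp5 are shown because they moved in both ventricles, and Fzd1 because it holds both motifs searched. Each line gives the 250 bases before the annotated start, on the minus strand, at chr3:104961710-104961959 for Wnt2b, chr19:42202253-42202502 for Sfrp5 and chr5:4758217-4758466 for Fzd1. Capitals mark TAATCC, the core bound by OTX2-type homeodomains, and TCAAAG, the core of TCF and LEF sites, or their reverse complements.
Wnt2b: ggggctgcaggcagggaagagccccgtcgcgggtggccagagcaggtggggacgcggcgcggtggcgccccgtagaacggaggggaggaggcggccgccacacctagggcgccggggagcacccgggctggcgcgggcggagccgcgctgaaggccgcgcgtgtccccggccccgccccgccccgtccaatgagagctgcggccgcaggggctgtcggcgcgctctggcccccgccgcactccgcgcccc
Sfrp5: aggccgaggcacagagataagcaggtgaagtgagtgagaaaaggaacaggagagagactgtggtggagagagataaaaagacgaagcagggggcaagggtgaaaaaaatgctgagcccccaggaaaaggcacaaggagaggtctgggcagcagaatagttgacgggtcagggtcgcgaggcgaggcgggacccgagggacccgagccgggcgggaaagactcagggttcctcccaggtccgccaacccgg
Fzd1: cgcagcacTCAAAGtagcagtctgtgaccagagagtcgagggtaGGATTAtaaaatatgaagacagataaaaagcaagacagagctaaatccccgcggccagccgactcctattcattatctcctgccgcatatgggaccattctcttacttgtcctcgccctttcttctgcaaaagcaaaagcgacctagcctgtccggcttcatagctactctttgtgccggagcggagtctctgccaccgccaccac
Of all 32851 promoters of the table, counted over 250 bases before and 50 after the start and on both strands, 7.06% held TAATCC and 16.0% held TCAAAG. The 2 motifs do not overlap each other in letters. Promoters were found for 33 of the 49 genes, 43 windows in all, of which 4 (9.30%) held TAATCC and 5 (11.6%) held TCAAAG. Of the 11 genes called in at least 1 comparison, 8 had a promoter there. Fzd1 held TAATCC, and Fzd1 and Wnt5b held TCAAAG. The windows of Wnt2, Wnt2b, Fzd4, Sfrp5, Nkd1 and Tle1 held neither set of letters, and Sfrp1, Sostdc1 and Dkk3 had no entry.

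The levels of the 49 genes, in CPM per kilobase of transcript, differed widely. Sostdc1, a secreted antagonist of LRP5, LRP6 and of BMP proteins, was the highest with a median of 221 over the 14 pools, closely followed by Ctnnb1, which encodes beta-catenin, at 217. The ranges of these genes over the pools, 101 to 286 and 179.7 to 253, overlap. Lrp6 followed at 70.3, then Sfrp1 at 46.3, and the receptors Fzd7 at 31.4 and Fzd4 at 26.5. The ranges of Fzd7, 20.6 to 36.4, and Fzd4, 13.1 to 38.3, also overlap. Ligands were far lower, and the highest, Wnt5b, Wnt5a and Wnt9a, had medians of 3.29, 2.38 and 1.55. The leading R-spondin was Rspo3 at 0.817 and the leading feedback gene was Axin2 at 10.05. In the nuclear group Ctnnb1 was followed by the corepressors Tle1 at 11.6 and Tle4 at 9.29. By median, the 3 leading receptors and the 3 leading inhibitors were above every ligand. Where another gene overlaps on the opposite strand, as Ulk4 does over 20.9% of the Ctnnb1 transcript, reads of both may be counted, since the strand of counting is not given in the sources used here.

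**Figure D1:**
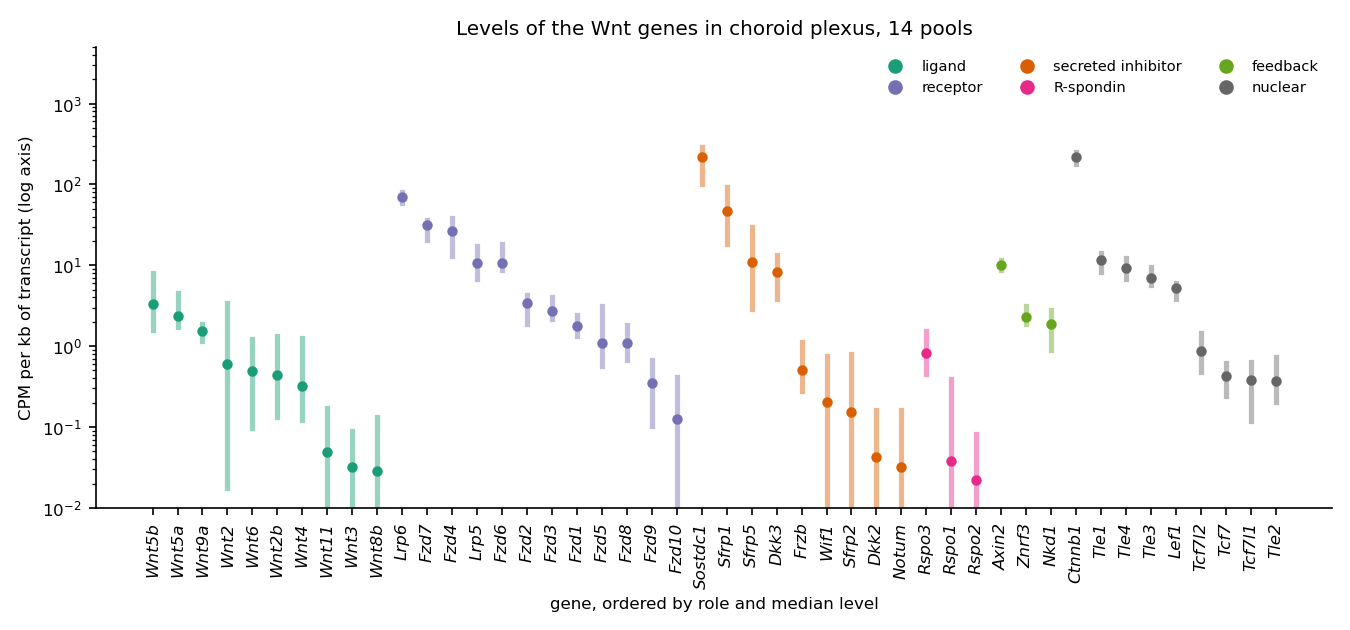
Level of the Wnt genes in CPM per kilobase of representative transcript on a log axis, grouped by role, with a point at the median of the 14 pools and a bar from the lowest to the highest pool. The secreted inhibitor Sostdc1 (221) and the nuclear effector Ctnnb1 (217) lead, the highest ligand is Wnt5b (3.29), and Wnt7a, Wnt7b and Wnt10a, whose median is 0, are not drawn. Bars that reach the lower edge include a pool at or below 0.01.

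A group of 10 genes had too few counts to be tested between any pair of groups. These were Dkk2, Notum, Rspo1, Rspo2, Wnt3, Wnt7a, Wnt7b, Wnt8b, Wnt10a and Wnt11. Their highest count in any pool lay between 1 for Wnt7b and 14 for Rspo1, and Wnt10a was at 0 in 12 of the 14 pools. For these genes a difference was not detectable at this depth. A count of 0 allows up to 3 counts in a pool, which is 0.12 to 0.277 CPM. These limits cover counting error only.

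Between pools labelled Cre-Tat and vehicle, the secreted inhibitors Sfrp1, Sfrp5 and Sostdc1 fell and the ligand Wnt2b rose in both ventricles. They were all 4 Wnt genes called in LV and 4 of the 9 called in 4V ChP. A gene was called at an adjusted p under 0.05 in the quasi-likelihood test of edgeR, with p-values adjusted by Benjamini and Hochberg's method for every gene tested. In LV ChP, 33 of the 49 genes were tested, of which 1 was higher and 3 were lower in Cre-Tat pools, where 2.21% and 1.03% of all genes tested were called. In 4V ChP, 36 were tested, of which 3 were higher and 6 were lower, with 5.7% and 4.98% of all genes called. DESeq2 called 1 higher and 4 lower in LV ChP, of which 3 were secreted inhibitors and 1 was a receptor. In 4V ChP it called 2 higher and 5 lower. The median log2 fold change of the Wnt genes was -0.18 in LV and -0.09 in 4V ChP, and that of all genes was 0.00 and 0.01. With scaling by total counts, the median of all genes moved to 0.17 in LV and 0.15 in 4V ChP, that of the Wnt genes to 0.00 and 0.06, and the calls to 1 higher with 2 lower and 4 higher with 5 lower.

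Between Otx2+/- and wildtype pools, 39 genes were tested and 2 were called, both secreted inhibitors and both lower, with 1.75% of all genes tested called lower and 1.78% higher. The median log2 fold change was 0.19 for the Wnt genes and 0.00 for all genes. DESeq2 called 1 receptor higher and 2 secreted inhibitors lower, with 356 of all 14573 genes higher and 314 lower. Scaling by total counts gave 1 higher and 2 lower, as did edgeR with the size factors of DESeq2. Without Otx2+/- pool B the number called was 4. Of all genes tested between Otx2+/AA and wildtype pools, 0.172% were called by edgeR in each direction. Of the 39 Wnt genes tested, 0 were called by edgeR, 4 had an unadjusted p under 0.05 and DESeq2 called 1 secreted inhibitor lower. Without wildtype pool B the count was 2. Between Otx2+/- and Otx2+/AA pools, 1 gene was lower and 0 of 39 were higher, with 1.33% and 1.37% of all genes called, 10 Wnt genes had an unadjusted p under 0.05 in either direction, and DESeq2 also called 0 higher. Without Otx2+/- pool B that comparison called 3 Wnt genes, and without Otx2+/- pool A or Otx2+/AA pool B it called 2. The wildtype pools are shared by the first 2 of these comparisons and the Otx2+/- pools by the first and the last.

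Between LV and 4V ChP of vehicle mice, 35 Wnt genes were tested, of which 2 were higher and 1 was lower in LV, with 3.46% and 3.98% of all genes called. DESeq2 called 2 higher and 0 lower. Scaling by total counts moved the median of all genes from 0.01 to -0.19, that of the Wnt genes from 0.15 to -0.05, and the calls to 1 higher and 3 lower. Without LV vehicle pool A the number called was 6, and without 4V vehicle pool B it was 1. The vehicle pools of this comparison are also the controls of both Cre-Tat comparisons.

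**Figure D2:**
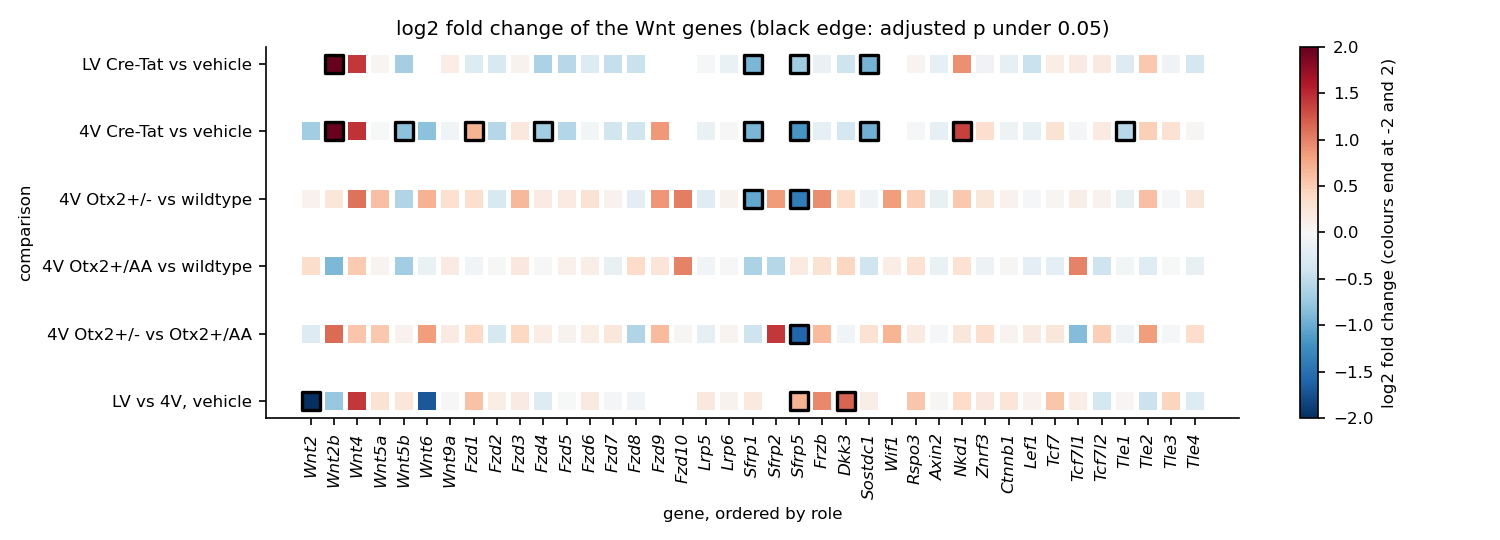
The log2 fold change of the 39 Wnt genes tested between any pair of groups (columns, by role) in the 6 comparisons (rows), red for higher and blue for lower in the group named first, with a black edge where the adjusted p is under 0.05 and no square where the gene was not tested. Wnt2b is red and called in both Cre-Tat comparisons, and Sfrp1 and Sfrp5 are blue and called in both and in Otx2+/- against wildtype.

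Of the ligands, Wnt2b, which acts through the canonical branch, rose in Cre-Tat pools of both ventricles. It measured 0.478 and 0.448 CPM in LV vehicle pools and 3.53 and 2.57 in LV Cre-Tat pools, and 0.593 and 1.02 in 4V vehicle pools and 4.40 and 4.23 in 4V Cre-Tat pools. All Cre-Tat pools were above all vehicle pools. The log2 fold change was 2.71 (SE 0.44, n = 2 pools a group, edgeR adjusted p = 0.00364) in LV and 2.45 (SE 0.38, edgeR adjusted p = 0.000301) in 4V ChP. The counts behind it were 8 to 11 in vehicle and 56 to 88 in Cre-Tat pools, so that it stayed a low-level ligand in all groups. In the constitutive model it was 1.72 and 1.29 CPM in wildtype, 1.62 and 1.95 in Otx2+/- and 0.891 and 0.730 in Otx2+/AA pools. The wildtype and Otx2+/- pools overlap there (log2 fold change 0.24, SE 0.34, edgeR adjusted p = 0.771), and the Otx2+/AA pools were below the wildtype pools without passing the test (-0.90, SE 0.42, edgeR adjusted p = 0.574). Levels below are also in CPM. As these are bulk samples, fewer cells of a type and less RNA per cell cannot be told apart, here and in every result that follows.

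Wnt5b, a ligand known mainly for beta-catenin-independent signalling, was 13.4 and 9.14 in 4V vehicle and 6.73 and 6.10 in 4V Cre-Tat pools, a log2 fold change of -0.82 (SE 0.22, edgeR adjusted p = 0.0209). The groups do not overlap, but the vehicle pools lay far apart, and without 4V vehicle pool A the log2 fold change was -0.50 (edgeR adjusted p = 0.408). DESeq2 gave an adjusted p of 0.056. In LV ChP the pools measured 16.9 and 9.95 in vehicle and 7.59 and 9.22 in Cre-Tat mice, and in the constitutive model 7.204 and 4.16 in wildtype, 4.09 and 3.39 in Otx2+/- and 3.47 and 3.599 in Otx2+/AA pools. Its wildtype pools were above all the mutant pools, and neither of these comparisons was called.

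Wnt2 set the ventricles apart. It was at 5 and 1 counts in LV vehicle, at 1 and 1 in LV Cre-Tat, at 15 and 17 in 4V vehicle and at 14 and 17 in 4V Cre-Tat pools, which is 0.239, 0.050, 0.040, 0.046, 1.11, 1.57, 0.760 and 0.856 CPM in that order. All 4V pools were above all LV pools. Between vehicle pools the log2 fold change of LV over 4V was -3.12 (SE 0.73, edgeR adjusted p = 0.0207). DESeq2 called 0 ligands in this comparison, but it gave no adjusted p for Wnt2, so this call could not be checked there. Summed over both pools, 32 counts in 4V stand against 6 in LV, a ratio of 8.996 with a 95% exact interval of 3.71 to 26.3 for counting error only. With so few counts the call was lost without LV vehicle pool B (-2.42, edgeR adjusted p = 0.117), without 4V vehicle pool A (-3.36, edgeR adjusted p = 0.0852) and without 4V vehicle pool B (-2.88, edgeR adjusted p = 0.220).

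The ligand Wnt4 was low and varied between pools. It was 1.099 and 1.79 in LV vehicle, 2.41 and 5.32 in LV Cre-Tat, 0.519 and 0.554 in 4V vehicle and 1.68 and 1.26 in 4V Cre-Tat pools. The Cre-Tat pools were above the vehicle pools of their own ventricle, with log2 fold changes of 1.42 (SE 0.42, edgeR adjusted p = 0.0893) and 1.45 (SE 0.51, edgeR adjusted p = 0.0843) that did not pass the test. In wildtype it was 0.574 and 1.01, in Otx2+/- 1.62 and 1.75 and in Otx2+/AA pools 0.844 and 1.46, and none of these comparisons was called. Wnt5a, the second ligand in level, ran from 12.1 to 31.5 over all pools and Wnt9a from 3.82 to 6.32, neither of them called anywhere. Over the 5 ligands tested in LV and the 7 tested in 4V ChP, the log2 fold changes ran from -0.67 to 2.71 and from -0.82 to 2.45.

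Of the receptors, Fzd4, which binds the ligand Norrin as well as Wnt proteins, fell in 4V Cre-Tat pools. It was 174 and 182 in 4V vehicle and 103 and 115 in 4V Cre-Tat pools, with a log2 fold change of -0.70 (SE 0.13, edgeR adjusted p = 0.00184). In LV ChP it was 141 and 158 in vehicle and 104 and 88.2 in Cre-Tat pools, again without overlap, with -0.63 (SE 0.16, edgeR adjusted p = 0.0519), just outside the threshold. In the constitutive model it was 222 and 212 in wildtype, 257.4 and 228 in Otx2+/- and 217 and 224 in Otx2+/AA pools, and these comparisons gave 0.17 (SE 0.12) and 0.01 (SE 0.12) without passing the test.

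The Frizzled receptor Fzd1 was 5.85 and 5.54 in 4V vehicle and 9.88 and 8.46 in 4V Cre-Tat pools (log2 fold change 0.69, SE 0.21, edgeR adjusted p = 0.0476). In LV ChP it was 7.45 and 9.85 in vehicle and 7.43 and 6.79 in Cre-Tat pools, both below the vehicle pools and without a call (-0.28, SE 0.22, edgeR adjusted p = 0.678). It was 6.37 and 8.44 in wildtype, 8.33 and 10.2 in Otx2+/- and 7.08 and 7.09 in Otx2+/AA pools. The 4V call was lost without 4V Cre-Tat pool A (0.56, edgeR adjusted p = 0.192), without 4V vehicle pool A (0.74, edgeR adjusted p = 0.127), without 4V vehicle pool B (0.65, edgeR adjusted p = 0.157) and in DESeq2 (adjusted p = 0.164). Lrp6, the most abundant receptor, ran from 556 to 745 over all pools and was not called in any comparison. Fzd7 was between 93.4 and 165, also without a call. Over the 10 receptors tested in LV ChP, 9 log2 fold changes were below 0 and 1 above, and over the 11 tested in 4V ChP 7 were below and 4 above. Their median was -0.30 in LV and -0.13 in 4V ChP, and that of all genes tested was 0.00 and 0.01.

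The secreted inhibitors held all 3 lower calls in LV Cre-Tat, 3 of 6 in 4V Cre-Tat and both in Otx2+/- pools. Sfrp1, a decoy with a Frizzled-like domain, fell in Cre-Tat pools of both ventricles and in Otx2+/- pools. It measured 372 and 411 in LV vehicle and 206 and 211 in LV Cre-Tat pools, a ratio of 0.532 between means. It measured 333 and 347 in 4V vehicle and 159.7 and 199 in 4V Cre-Tat pools, a ratio of 0.528. The log2 fold changes were -0.91 (SE 0.16, edgeR adjusted p = 0.00622) and -0.92 (SE 0.14, edgeR adjusted p = 0.000363). In the constitutive model it was 243 and 181 in wildtype, 125 and 80.1 in Otx2+/- and 128 and 149 in Otx2+/AA pools. All mutant pools were below both wildtype pools. The log2 fold change was -1.04 (SE 0.22, edgeR adjusted p = 0.0375) for Otx2+/- and -0.63 (SE 0.15, edgeR adjusted p = 0.1199) for Otx2+/AA pools, of which the second did not pass in edgeR. The LV call was lost without LV vehicle pool B (-0.84, edgeR adjusted p = 0.0635). The Otx2+/- call was lost when counts were summed over transcripts (-1.04, edgeR adjusted p = 0.0673).

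Sfrp5, a close relative of Sfrp1 with the same kind of domain, fell in the same comparisons. It was 48.1 and 56.0 in LV vehicle and 27.4 and 36.0 in LV Cre-Tat pools, and 37.5 and 26.3 in 4V vehicle and 13.95 and 14.3 in 4V Cre-Tat pools. The log2 fold changes were -0.71 (SE 0.18, edgeR adjusted p = 0.0423) in LV and -1.18 (SE 0.18, edgeR adjusted p = 0.000261) in 4V ChP. In the constitutive model it was 17.2 and 19.3 in wildtype, 5.40 and 8.43 in Otx2+/- and 18.8 and 22.7 in Otx2+/AA pools. The Otx2+/- pools were below all others, by -1.40 (SE 0.22, edgeR adjusted p = 0.0102) against wildtype and by -1.58 (SE 0.22, edgeR adjusted p = 0.00197) against Otx2+/AA. Otx2+/AA and wildtype pools overlap. Sfrp5 was also higher in LV than in 4V vehicle pools, with 0.69 (SE 0.16, edgeR adjusted p = 0.0190).

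The smaller Sfrp5 differences kept their direction without any single pool, but their calls did not always hold. The LV Cre-Tat call was lost without LV Cre-Tat pool A (-0.51, edgeR adjusted p = 0.110), LV vehicle pool A (-0.82, edgeR adjusted p = 0.0568) or LV vehicle pool B (-0.60, edgeR adjusted p = 0.311), and with total counts (-0.55, edgeR adjusted p = 0.133). The difference between ventricles was lost without 4V vehicle pool B (0.47, edgeR adjusted p = 0.199) and with total counts (0.51, edgeR adjusted p = 0.0600).

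Sostdc1 fell in the conditional model. It was 407 and 385 in LV vehicle and 187 and 222 in LV Cre-Tat pools, and 402 and 315 in 4V vehicle and 188 and 179 in 4V Cre-Tat pools, ratios of 0.517 and 0.512 between means. The log2 fold changes were -0.95 (SE 0.16, edgeR adjusted p = 0.00548) and -0.96 (SE 0.15, edgeR adjusted p = 0.000337), and both calls held without any single pool. In the constitutive model it was 417 and 510 in wildtype, 402 and 468 in Otx2+/- and 295 and 414 in Otx2+/AA pools. The wildtype and Otx2+/- pools overlap (-0.09, SE 0.14, edgeR adjusted p = 0.796). The Otx2+/AA pools were below the wildtype pools without passing the test (-0.40, SE 0.17, edgeR adjusted p = 0.483).

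Dkk3, a divergent member of the Dickkopf family, differed between ventricles. It was 33.0 and 45.4 in LV vehicle and 18.3 and 16.2 in 4V vehicle pools, a log2 fold change of 1.17 (SE 0.16, edgeR adjusted p = 0.000722) that held without any single pool. In Cre-Tat pools it was 30.0 and 28.4 in LV and 14.3 and 12.7 in 4V ChP, so that all LV pools were above all 4V pools of this model. It was 24.7 and 24.0 in wildtype, 36.1 and 26.7 in Otx2+/- and 38.1 and 28.2 in Otx2+/AA pools, with no call. Sfrp2, a decoy of the same family as Sfrp1 and Sfrp5, was at 0 to 10 counts in the conditional pools and was not tested there. In wildtype it was 1.20 and 0.394, in Otx2+/- 1.62 and 1.28 and in Otx2+/AA pools 0.516 and 0.574, with no call. Over the 5 inhibitors tested, all log2 fold changes were below 0 in both Cre-Tat comparisons, with a median of -0.71 in LV and -0.92 in 4V ChP, and 3 of the 5 were called in each. Of all genes tested, 1.03% were called lower in LV and 4.98% in 4V ChP, and the median log2 fold change was 0.00 and 0.01.

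**Figure D3:**
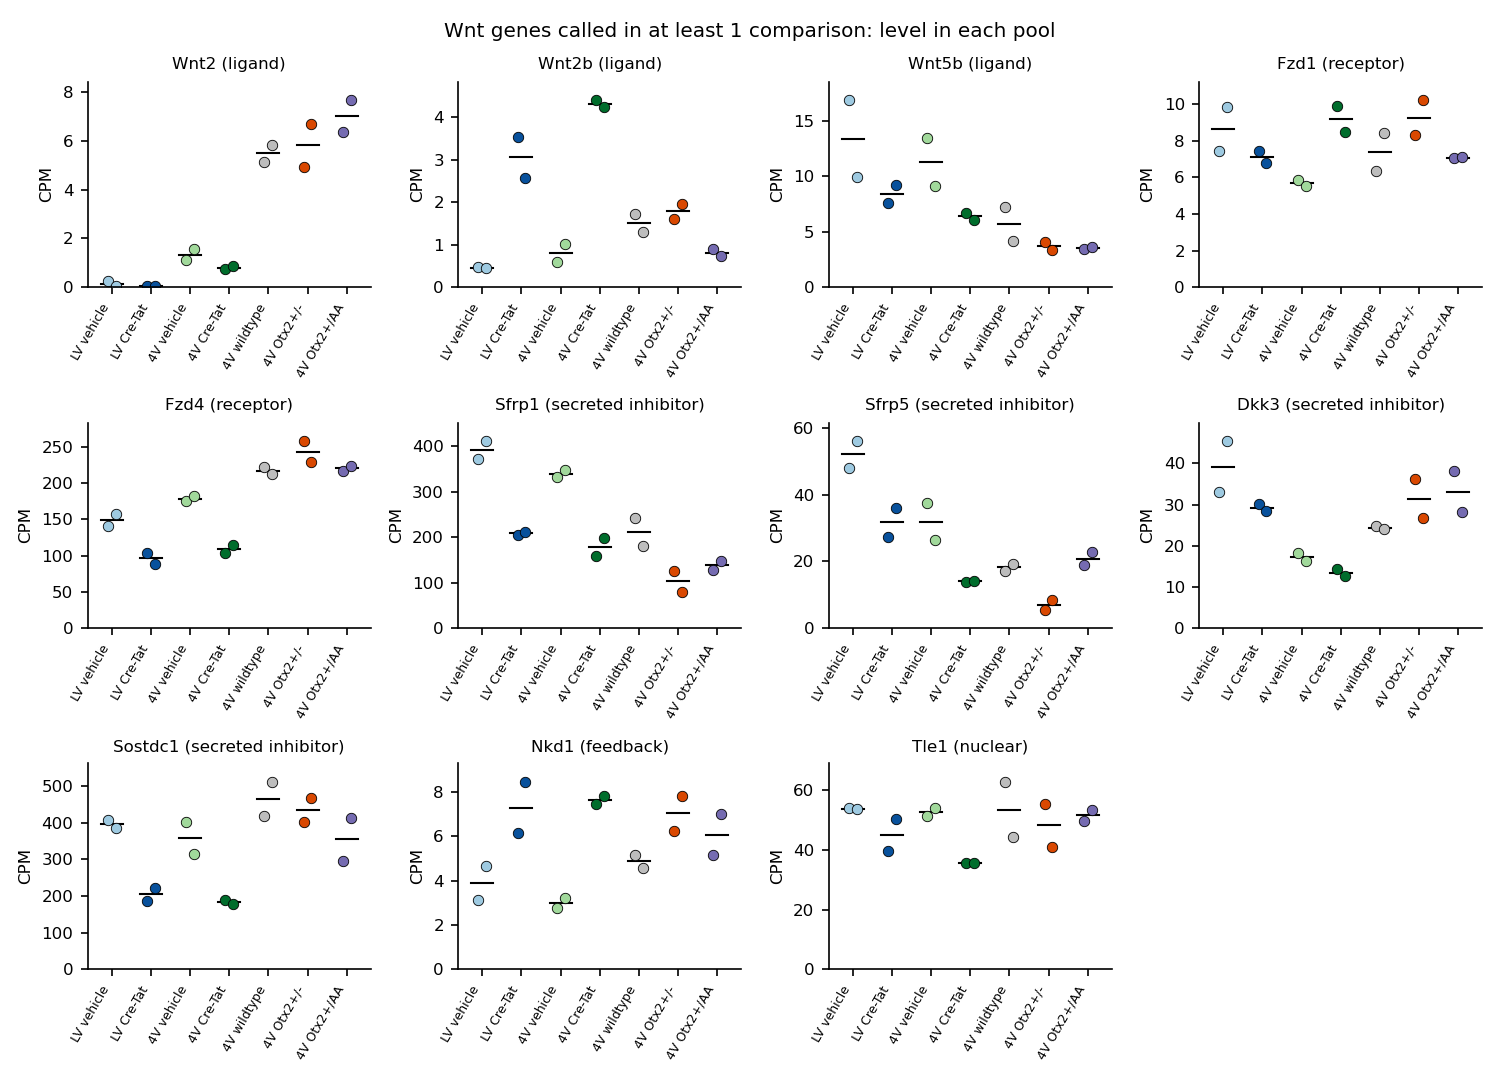
CPM in each pool (points) and the group mean (line) of the 11 Wnt genes called in at least 1 comparison, with each axis starting at 0. Wnt2b lies between 2.57 and 4.40 in the Cre-Tat pools and at or below 1.95 in all others, Sostdc1 lies at or below 222 in the Cre-Tat pools and at or above 295 in all others, and Sfrp5 is lowest in the Otx2+/- pools, at 5.40 and 8.43.

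The R-spondins were scarce. Rspo3 was the only R-spondin tested, at 1.41 to 4.73 over all pools, and no comparison called it by edgeR or DESeq2 or gave it an unadjusted p under 0.05. Rspo1 was at 0 counts in 6 pools. It was at 0, 0, 0 and 1 counts in the LV pools of vehicle and Cre-Tat mice, at 0 and 1 in 4V vehicle, 4 and 0 in 4V Cre-Tat, 5 and 7 in wildtype, 5 and 14 in Otx2+/- and 4 and 0 in Otx2+/AA pools. Rspo2 had at most 6 counts in any pool.

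The feedback regulators differed among themselves. Nkd1, which binds Dishevelled and restrains the canonical branch, was 2.74 and 3.23 in 4V vehicle and 7.44 and 7.81 in 4V Cre-Tat pools, a log2 fold change of 1.36 (SE 0.25, edgeR adjusted p = 0.00148) that held without any single pool and over both of its transcripts tested. In LV ChP it was 3.11 and 4.68 in vehicle and 6.14 and 8.44 in Cre-Tat pools (0.91, SE 0.27, edgeR adjusted p = 0.0980), again without overlap but past no threshold. It was 5.17 and 4.56 in wildtype, 6.26 and 7.81 in Otx2+/- and 5.16 and 6.99 in Otx2+/AA pools, with no call. Axin2, the most widely used readout of beta-catenin activity, lay between 37.1 and 49.7 in all pools. It was 46.8 and 47.6 in LV vehicle, 41.6 and 41.3 in LV Cre-Tat, 43.1 and 49.7 in 4V vehicle and 37.1 and 44.8 in 4V Cre-Tat pools, and 39.3 to 44.6 in the constitutive model. Its log2 fold changes were -0.18 (SE 0.15) in LV, -0.17 (SE 0.14) in 4V ChP and -0.15 (SE 0.11) in Otx2+/- pools, none of them called. Znrf3, a ubiquitin ligase that removes Frizzled receptors, ran from 12.0 to 19.7 over all pools, with no call.

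Of the nuclear effectors, Tle1, a Groucho corepressor, fell in 4V Cre-Tat pools. It was 51.5 and 54.0 in 4V vehicle and 35.7 and 35.6 in 4V Cre-Tat pools (log2 fold change -0.56, SE 0.13, edgeR adjusted p = 0.00975). All 10 of its transcripts tested were lower and 8 were called, although transcripts of a gene share reads. In LV ChP it was 54.1 and 53.5 in vehicle and 39.5 and 50.3 in Cre-Tat pools, without a call. In the constitutive model its pools overlap, at 62.6 and 44.3 in wildtype, 55.5 and 40.9 in Otx2+/- and 49.7 and 53.5 in Otx2+/AA pools. The 4V call was lost with total counts (-0.42, edgeR adjusted p = 0.0732), without 4V vehicle pool A (-0.58, edgeR adjusted p = 0.0540) and without 4V vehicle pool B (-0.53, edgeR adjusted p = 0.0780). Ctnnb1 ran from 651 to 916 and Tle4 from 30.5 to 56.1 over all pools, neither of them called. The log2 fold changes of all 9 nuclear effectors ran from -0.44 to 0.54 in LV and from -0.56 to 0.47 in 4V ChP.

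The difference between effects was tested directly. Between the Cre-Tat effects in LV and 4V ChP, 0 of 39 Wnt genes differed by edgeR, 2 had an unadjusted p under 0.05 and DESeq2 also called 0, against 0.00642% of all genes called. For Wnt2b the difference was 0.27 (SE 0.56), for Sfrp1 0.01 (SE 0.21), for Sostdc1 0.02 (SE 0.22), for Sfrp5 0.47 (SE 0.26) and for Nkd1 -0.45 (SE 0.37). The smallest unadjusted p was that of Fzd1, 0.00538, with a difference of -0.96 (SE 0.30, edgeR adjusted p = 0.9997), from log2 fold changes of -0.28 in LV and 0.69 in 4V ChP. Calls in a single ventricle, those of Fzd1, Fzd4, Nkd1, Tle1 and Wnt5b, are therefore not shown to be particular to it.

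Between the 4V Cre-Tat effect and the 4V Otx2+/- effect, 2 of 39 Wnt genes differed, with 1.64% of all genes called. Wnt2b rose more under Cre-Tat, by 2.20 (SE 0.50, edgeR adjusted p = 0.0469), and Fzd4 differed by -0.88 (SE 0.17, edgeR adjusted p = 0.0221). The Wnt2b call was lost in DESeq2 (adjusted p = 0.0538) and without each single pool in turn (edgeR adjusted p from 0.0643 to 0.212), and the Fzd4 call without 6 of the 8 pools (edgeR adjusted p from 0.0690 to 0.117). DESeq2 called 0 Wnt genes higher and 2 lower between the models, 1 receptor and 1 secreted inhibitor, with 173 and 200 of all 15327 genes. In edgeR, Sostdc1 had a difference of -0.89 (SE 0.22, edgeR adjusted p = 0.0664) that did not pass. Sfrp1 and Sfrp5 gave 0.11 (SE 0.28) and 0.21 (SE 0.30). The models differ in strain, sequencing run and injection, which cannot be told apart from the kind of Otx2 loss.

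**Figure D4:**
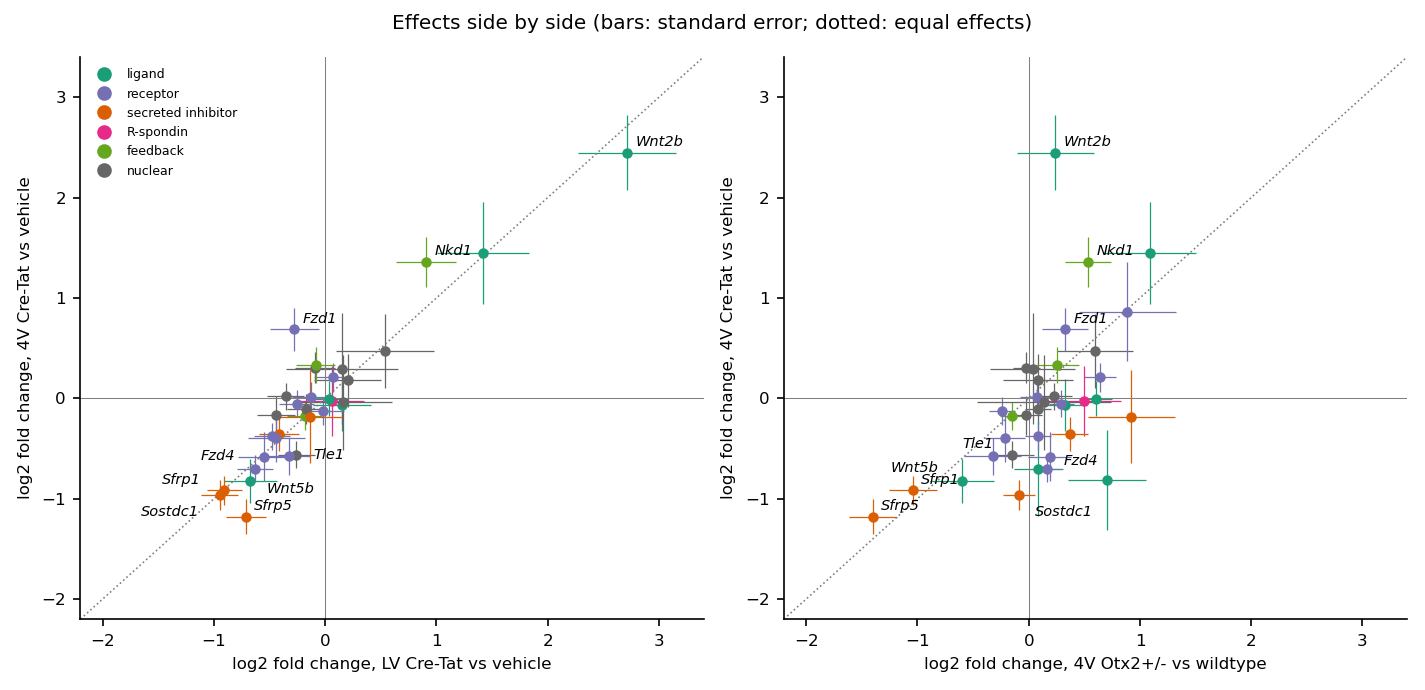
Log2 fold change of each Wnt gene in 4V Cre-Tat against vehicle (y axis) set against LV Cre-Tat against vehicle (left) and 4V Otx2+/- against wildtype (right), with standard errors as bars, colours for roles, names for genes called in either comparison and a dotted line of equal effects. Wnt2b lies near the line on the left (2.71 and 2.45) and far above it on the right (0.24 and 2.45), and Sfrp1 and Sfrp5 lie below 0 on both axes of both plots.

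Of 85 further Wnt pathway genes found in the files, which carry, modify or relay the signal, 65 were tested in LV ChP and 0 were called between Cre-Tat and vehicle by edgeR or DESeq2, with 6 at an unadjusted p under 0.05. In 4V ChP, 4 of 65 were higher and 4 lower, or 3 and 2 by DESeq2, where 5.7% and 4.98% of all genes tested were called by edgeR. Cd44, a hyaluronan receptor and known pathway target, was 3.86 ± 0.83 (SD, n = 2) in Cre-Tat and 0.786 ± 0.064 in vehicle pools, a log2 fold change of 2.30 (edgeR adjusted p = 0.000726). Gpc4, a glypican that binds Wnt proteins at the cell surface, was 59.9 ± 4.8 and 36.5 ± 0.13 (0.72, edgeR adjusted p = 0.00170), and the transglutaminase Tgm2 was 17.4 ± 0.92 and 9.19 ± 1.4 (0.93, edgeR adjusted p = 0.00256). Tle6, a divergent relative of the TLE corepressors, was 1.40 ± 0.41 and 0.259 ± 0.16 (2.45, edgeR adjusted p = 0.0167), and the planar polarity gene Prickle1 fell from 19.8 ± 2.5 to 11.3 ± 0.63 (-0.81, edgeR adjusted p = 0.00500). A single count is 0.074 or 0.092 CPM in the 4V vehicle pools, so Cd44 and Tle6 rest on few counts there.

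Between Otx2+/- and wildtype pools, 3 of 66 further genes were higher and 1 lower, or 2 and 1 by DESeq2, where 1.78% and 1.75% of all genes tested were called by edgeR. The glypican Gpc3 was 36.1 ± 1.3 in Otx2+/- and 13.2 ± 1.6 in wildtype pools (1.45, edgeR adjusted p = 0.00135), and Dact1, a Dishevelled-binding protein, was 73.6 ± 3.6 and 44.4 ± 2.0 (0.73, edgeR adjusted p = 0.0104). The R-spondin receptor Lgr5 was 1.604 ± 0.088 and 0.321 ± 0.14 (2.29, edgeR adjusted p = 0.0395), and Aes, a truncated TLE relative, was lower at 73.0 ± 4.7 against 111 ± 5.4 (-0.60, edgeR adjusted p = 0.0251). A single count is 0.052 or 0.056 CPM in the wildtype pools, so Lgr5 rests on few counts there. Gpc3 and Lgr5 were also the 2 of 66 genes higher in Otx2+/- than in Otx2+/AA pools (1.12, edgeR adjusted p = 0.00145, and 1.92, edgeR adjusted p = 0.0458). Between Otx2+/AA and wildtype pools 0 of 65 were called by edgeR, 5 had an unadjusted p under 0.05 and DESeq2 called 1 higher. Gpc3, Dact1 and Aes were also the further genes whose 4V Cre-Tat and Otx2+/- effects differed, by -1.69 (edgeR adjusted p = 0.00343), -1.16 (edgeR adjusted p = 0.0148) and 1.01 (edgeR adjusted p = 0.0133).

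Between LV and 4V vehicle pools, 4 of 65 further genes were higher and 4 lower in LV, also by DESeq2, where 3.46% and 3.98% of all genes tested were called by edgeR. Wls, which carries Wnt proteins to the cell surface, was 217 ± 6.0 in LV and 508 ± 7.5 in 4V pools (-1.23, edgeR adjusted p = 4.042e-05), and Prickle1 was 9.02 ± 0.33 and 19.8 ± 2.5 (-1.14, edgeR adjusted p = 0.000975). Cd44 was higher in LV, at 7.33 ± 1.5 against 0.786 ± 0.064 (3.21, edgeR adjusted p = 6.275e-05), as were Gpc4 at 60.1 ± 1.9 against 36.5 ± 0.13 (0.72, edgeR adjusted p = 0.00249) and the Nkd1 relative Nkd2 at 7.93 ± 0.54 against 2.62 ± 0.70 (1.57, edgeR adjusted p = 0.00257). The 4V value of Cd44 again rests on few counts.

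Markers of several cell types differed between Cre-Tat and vehicle pools. The summed level of the 10 ChP epithelial markers was 46997 to 47528 in LV vehicle and 31857 to 32454 in LV Cre-Tat pools, a ratio of 0.680 between means, and 49444 to 53827 in 4V vehicle and 27786 to 29339 in 4V Cre-Tat pools, a ratio of 0.553. Most of each sum was Enpp2, at 35911 and 36124 in LV vehicle and 22723 and 23874 in LV Cre-Tat pools. In 4V ChP Enpp2 was 42337 and 37767 in vehicle and 20086 and 20713 in Cre-Tat pools. The ratios are thus mainly those of 1 gene. The median log2 fold change of the 10 genes was -0.49 in LV and -0.78 in 4V ChP. Of the 10, 3 were lower and 1 higher in LV and 8 lower and 1 higher in 4V Cre-Tat pools, the list holding Otx2 itself. The falls of Sfrp1 and Sostdc1 in Cre-Tat pools stand beside these values, and the part of the epithelial markers in them was not tested. In Otx2+/- pools, where Sfrp1 and Sfrp5 were also lower, the sum was 46417 to 52542 against 51929 to 53970 in wildtype pools, a ratio of 0.934, with 1 of 10 markers higher and 1 lower. The 11 stromal markers summed to 1313 and 1384 in Otx2+/- and 1035 and 1104 in wildtype pools, with 2 of 11 higher, and 1 astrocyte and 1 macrophage marker were also higher. The part of these lists in the falls of Sfrp1 and Sfrp5 was not tested.

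The 8 macrophage markers summed to 66.8 to 76.4 in LV vehicle and 116 to 125 in LV Cre-Tat pools, and to 48.2 to 51.3 in 4V vehicle and 77.8 to 104 in 4V Cre-Tat pools, with 3 of 8 and 6 of 7 tested genes higher. The 11 stromal markers summed to 952 and 984 in LV vehicle and 1079 and 1445 in LV Cre-Tat pools, and to 762 and 858 in 4V vehicle and 1386 and 1520 in 4V Cre-Tat pools, with 2 of 11 higher and 1 lower in each ventricle. The rise of the sum rests on its most abundant gene, Ptgds, named after its values were seen, since without it the other 10 genes summed to 626 and 660 in LV vehicle, 585 and 601 in LV Cre-Tat, 535 and 556 in 4V vehicle and 520.2 and 467 in 4V Cre-Tat pools. The 6 ependymal markers summed to 152 and 165 in LV vehicle and 228 and 283 in LV Cre-Tat pools, and to 142 and 182 in 4V vehicle and 277 and 287 in 4V Cre-Tat pools, with 2 of 5 tested genes higher in each. The ependymal rise lay mainly in Foxj1 and Dynlrb2, named after their values were seen. Foxj1 was 76.5 and 85.6 in LV vehicle and 132 and 149 in LV Cre-Tat pools. In 4V ChP it was 101 and 85.3 in vehicle and 179 and 189 in Cre-Tat pools. Ccdc153 and Mia overlapped between Cre-Tat and vehicle pools in both ventricles, as did Tmem212 in LV and Hdc in 4V ChP. The part of these cell types in the rise of Wnt2b and Nkd1 was not tested. Endothelial, mural, neuronal, astrocyte, oligodendrocyte and lymphocyte lists had ratios of Cre-Tat to vehicle means of 1.13, 1.12, 1.28, 1.12, 1.28 and 4.13 in LV and 1.01, 1.04, 0.670, 0.856, 1.04 and 3.29 in 4V ChP. The lymphocyte sum was at most 9.31, and of its defining markers Cd79a was at 0 in 10 and Ms4a1 in 8 of the 14 pools. Between LV and 4V vehicle pools, where Wnt2, Sfrp5 and Dkk3 differed, the endothelial sum was 243 to 283 against 164 to 183, with 3 of 10 markers higher in LV, and its part was not tested.

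**Figure D5:**
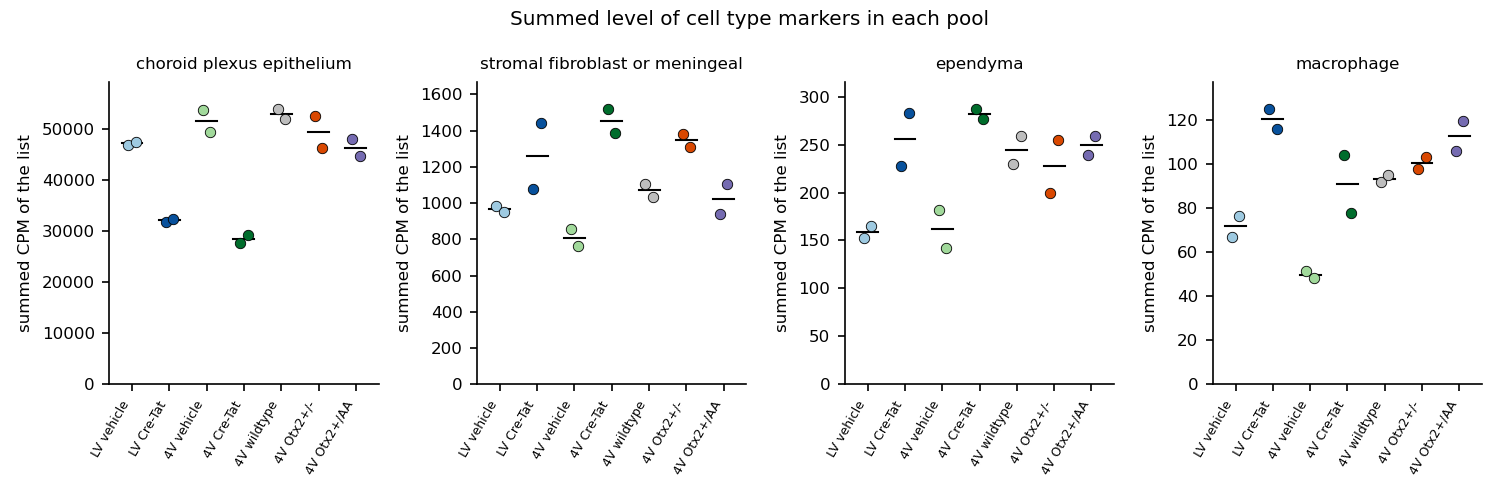
Summed CPM of the markers of 4 cell types in each pool (points), with the group mean (line) and axes that start at 0. The epithelial sum, most of it Enpp2, is at most 32454 in Cre-Tat pools and at least 44686 in all others. The stromal, ependymal and macrophage sums are higher in Cre-Tat than in vehicle pools of the same ventricle. The stromal sum is higher through Ptgds and the ependymal sum mainly through Foxj1 and Dynlrb2.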

How the data were processed

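Counts were deposited by the authors in 22 files, as whole numbers of reads for each of 95533 Ensembl transcripts, without normalization. Per the labels, ribosomal RNA was depleted and libraries were made with a strand-specific kit and read over 50 bases, while the study's methods describe PolyA+ selection. The submitters' processing notes name bcl2fastq 1.8.4, Bowtie 0.12.9, SAMtools, HTSeq 0.5.3, DESeq 1.8.3 and mm10. The strand of counting and the annotation are not given in the sources used here.

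Transcripts were matched to GENCODE vM21 (82807 matched, holding 89.5% of counts), and a gene's value is that of its transcript with the highest total count. Both sequencing runs of a conditional pool were summed, joined by library number. Tests used edgeR 4.0.16 (R 4.3.3) with filterByExpr, TMM and the quasi-likelihood method, 2 pools a group and no covariate, and p-values were adjusted over all genes tested. CPM used TMM library sizes over all 14 pools, and levels between genes were set per kilobase. The test was also run on counts simulated from its own model, which cannot show how well that model holds for these pools. Totals of 22750019 to 50088408 counts per pool set the counting error alone.

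The members and all gene lists were chosen with earlier results of these data known. Every gene is accounted for. Values in each pool were printed for genes called in any comparison and for 6 of those that the study discusses (Rspo1, Sfrp1, Sfrp2, Sostdc1, Wnt2b, Wnt4). Others were given by range with the 3 highest of each role named, and of further pathway genes at most the 5 of smallest p. Alternatives were DESeq2 1.42.0, its size factors, total counts, no filter, summed transcripts, a joint fit, the pool letter as a block, each pool left out, and files as attached.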

Additional observations from a re-analysis of the deposited data

Results flagged for a closer look

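For 2 genes the test of the difference between the 4V Cre-Tat effect and the 4V Otx2+/- effect passed the threshold. For Wnt2b the difference of log2 fold changes was 2.20 (SE 0.50, edgeR adjusted p = 0.0469), from 2.45 under Cre-Tat and 0.24 in Otx2+/- pools. For Fzd4 it was -0.88 (SE 0.17, edgeR adjusted p = 0.0221), from -0.70 and 0.17. The models differ in strain, sequencing run and injection, which cannot be told apart from the kind of Otx2 loss. No group holds more than 2 pools, so no pool was tested for standing apart from its group.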

How the results depend on the processing

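Each of the 21 calls named in the report kept its direction under every alternative except files as attached, and of 242 repeats of these calls 199 also stayed past the threshold. DESeq2 gave no adjusted p for Wnt2 between ventricles, so its direction and call there are not counted among the 242. The number of Wnt genes called moved by over 1.5 times as follows. With no filter on low counts it was 8 in LV Cre-Tat, 1 in Otx2+/AA and 5 between ventricles, against 4, 0 and 3. Calls over all genes were then 559 higher and 315 lower in LV Cre-Tat, 192 and 198 in Otx2+/AA, and 864 and 976 between ventricles. DESeq2 called 1 in Otx2+/AA, with 63 of all genes higher and 59 lower. Summed transcripts left 1 in Otx2+/- against wildtype and 1 in the difference between models, against 2 and 2. Over all genes they left 197 higher and 198 lower in the first, and 83 and 83 in the second. Leaving out each pool in turn gave 2 to 4 in Otx2+/- against wildtype, 0 to 2 in Otx2+/AA against wildtype, 1 to 3 between Otx2+/- and Otx2+/AA, 1 to 6 between ventricles and 0 to 1 in the difference between models. A group left with 1 pool was assumed to vary like the other. The cause of these changes was not tested. Summed transcripts also ended the calls of Sfrp5 (edgeR adjusted p = 0.0695) in LV Cre-Tat, Fzd1 (0.122) in 4V Cre-Tat, Wnt2 (0.0540) and Sfrp5 (0.0518) between ventricles and Wnt2b (0.116) between the models, and a joint fit of the run ended those of Wnt5b (0.0738) and Fzd1 (0.0736) in 4V Cre-Tat. DESeq2 ended that of Wnt5b (adjusted p = 0.0560).

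With files as attached to their samples, where both pools of a group hold runs of the same libraries, 24 Wnt genes were called in LV and 25 in 4V Cre-Tat, 14 between ventricles, 13 between the Cre-Tat effects and 14 between the models. Calls over all genes rose too, to 3391 higher and 3318 lower of 14956 tested in LV, and 4354 and 4388 of 14858 in 4V Cre-Tat. They were 2283 and 2435 of 14454 between ventricles, 2766 and 2492 of 15380 between the Cre-Tat effects, and 2263 and 2425 of 15421 between the models. The log2 fold changes turned to 0.63 for Sfrp5, -0.38 for Wnt2b, 0.28 for Sfrp1 and 0.048 for Sostdc1 in LV, and to 0.30 for Tle1, 1.30 for Sfrp5, -0.99 for Wnt2b, 0.42 for Wnt5b, 0.29 for Sfrp1 and 0.41 for Sostdc1 in 4V ChP, and to -1.24 for Wnt2b between the models.

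The labels give pools the letters A and B, and nothing says that a letter marks shared animals. The deviations of pools with the same letter correlated between -0.12 and 0.29. With the letter as a replicate block, the count was 6 in Otx2+/- against wildtype, 2 in Otx2+/AA against wildtype and 1 in the difference between models, against 2, 0 and 2. The block ended the call of Wnt2b between the models (edgeR adjusted p = 0.0610). In LV Cre-Tat the same-letter correlation was -0.12, and a block with crossed letters, chosen after seeing the data, called 9 against 4. Over all genes the crossed block called 596 higher and 416 lower, where the main fit called 331 and 155.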

Other observations

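The controls of the models differ in strain, sequencing run and injection, which cannot be told apart, and their 4V levels are set side by side here with no test. Wnt2 was 1.11 and 1.57 CPM in 4V vehicle and 5.12 and 5.85 in wildtype pools, and it was between 4.95 and 7.67 in the Otx2+/- and Otx2+/AA pools. Sfrp1 was 333 and 347 in vehicle and 243 and 181 in wildtype, and Sfrp5 37.5 and 26.3 against 17.2 and 19.3. Fzd4 was 174 and 182 against 222 and 212, and Nkd1 2.74 and 3.23 against 5.17 and 4.56. Sfrp2 was at 1 count in each 4V vehicle pool and at 23 and 7 counts in wildtype pools. Ctnnb1, at 749 and 733 against 786 and 788, and Axin2, at 43.1 and 49.7 against 44.1 and 44.6, were alike in size. For endothelial markers the sum was 164 to 183 CPM in 4V vehicle and 432 to 463 in wildtype pools, and for mural markers it was 210.2 to 233 and 503 to 531.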
